A study of Mus musculus with 8 samples.

Results

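The comparison described here is loss of Gpr176 in the subjective night, measured in the suprachiasmatic nucleus (SCN) of the mouse hypothalamus at circadian time 18 (CT18). Its members are 4 of the 8 arrays of the study, wild type A and B and knockout A and B at CT18, chosen by their titles. All mice were C57BL/6J, either wild type or Gpr176-/-. Before sampling they had spent over 2 weeks on a light cycle (12 h on, 12 h off), and were then moved to constant darkness, where CT18 falls 18 h after the start of the presumptive day. Laser-microdissected SCN tissue of 10 animals was pooled for each array, and the labels call the 2 arrays of a group biological replicates. The other 4 arrays hold the same genotypes at CT6, in the subjective day, and served here to estimate the spread and to show whether a difference recurred in other pools. Of 19938 genes with a probe set of their own, 12452 were bright enough to be tested. Levels are log2 array signals, and a difference is knockout minus wild type, so that -1 is a halving of the signal.

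The product of Gpr176 is an orphan receptor, enriched in the SCN, that signals through Gz, an inhibitory G protein of the Gi class that lowers cAMP. In SCN neurons cAMP acts both as an output of the clock and as an input to it, through protein kinase A and the transcription factor CREB, which drives Per genes and immediate early genes from cAMP response elements. RGS16, a regulator of G protein signalling, speeds the shut-off of Gi proteins and thereby lifts their brake on cAMP. Whether it acts on Gz was not measured here. The comparison asks which transcripts of the SCN, in these pathways and beyond them, differ in the night when the receptor is missing.

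Genes known from the SCN were present in the tissue. Of 26 SCN identity genes on the array 23 passed the level filter. Among them were the neuropeptides Avp, Vip and Nms and the homeobox genes Lhx1 (9.89 to 10.03 in the 4 CT18 arrays) and Six6 (9.66 to 9.75). Of all 19938 genes 12452 passed, as did 13 of 23 markers of neighbouring hypothalamic nuclei. Markers of the tissue beside the SCN passed too, so passing the filter does not show that the tissue was SCN alone. The array wild type A at CT18 stood apart from the other CT18 arrays in genes of the leptomeninges, the thin membranes that cover the brain next to the SCN. The summed signal of the 18 such markers on the array was 9032 in wild type A, 4452 in wild type B, 4366 in knockout A and 4566 in knockout B. With pooled bulk tissue, fewer cells of a type and less RNA per cell cannot be told apart, and p-values measure the spread between pools.

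Gpr176 itself was the 1 gene that passed the test. Under 3 of the 20 alternatives Eif2ak4 and Tmem185b, described next, passed as well. The level of Gpr176 was 9.73 in wild type A and 9.87 in wild type B, against 8.42 in knockout A and 8.56 in knockout B, so the groups lay far apart and did not overlap. The mean fell from 9.80 ± 0.0973 (SD, n = 2) to 8.49 ± 0.0990 (SD, n = 2). The difference was -1.31 ± 0.0694 (standard error; 95% interval -1.47 to -1.15), a 2.48-fold lower signal (limma adjusted p = 8.38e-05). The A arrays and the B arrays each gave -1.31. At CT6, in separate pools, Gpr176 differed by -1.30 ± 0.0694 (limma adjusted p = 9.28e-05). A signal well above the filter of 6.82 remained in the knockout, and the labels give neither the deleted stretch of the gene nor the place of the probe set in it.

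**Figure D1:**
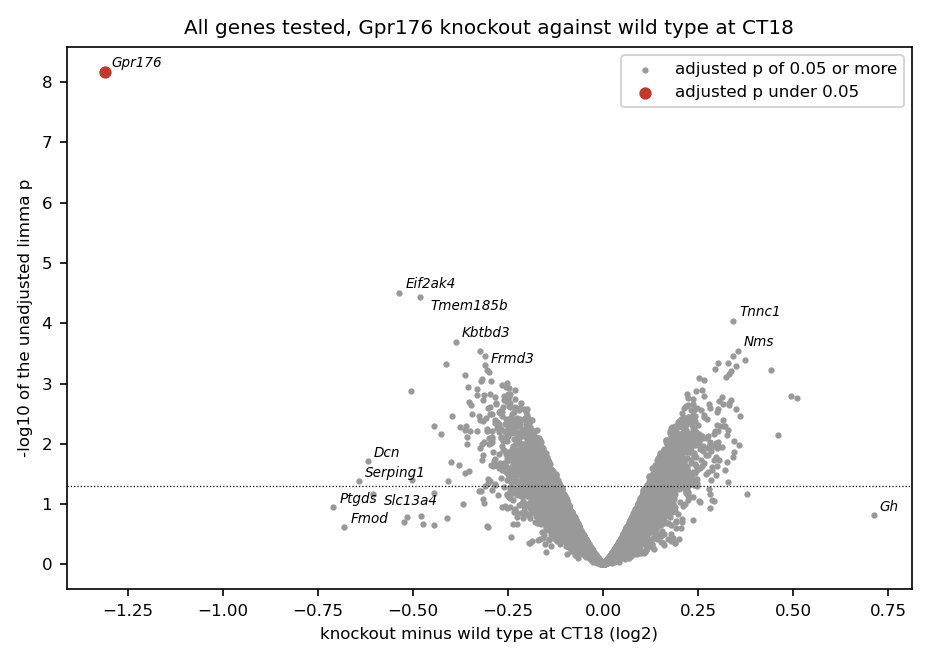
Each point is 1 of the 12452 genes tested at CT18; the horizontal axis is knockout minus wild type (log2) and the vertical axis -log10 of the unadjusted limma p, with a dotted line at 0.05. Gpr176, in red at -1.31, stands alone, and Eif2ak4 (-0.54) and Tmem185b (-0.48) come next.

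No other gene passed an adjusted p of 0.05, which gives 0 genes higher and 1 lower, or 0.00803% of the genes tested. The next smallest limma adjusted p was 0.153, shared by Eif2ak4 and Tmem185b. Before adjustment, 1558 genes (12.5%) had a limma p under 0.05, 657 of them higher in the knockout (5.28%) and 901 lower (7.24%). Both knockout arrays lay above both wild-type arrays for 2386 genes (19.2%) and below them for 3323 (26.7%). The median difference of all genes was -0.0165. The balance between higher and lower genes depended on scaling. Of the genes with p under 0.05, 42.2% were higher here, 35.4% in the values as deposited (559 against 1022) and 20.7% after centring each array on its median (358 against 1374), which also moved the median of all genes to -0.0582.

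For each gene singly, before any adjustment, the standard errors show how closely its difference in normalized signal was measured. Their median was 0.0636, and the median half-width of a 95% interval was 0.142. For 12372 genes (99.4%) the whole 95% interval lay within 1.5-fold in either direction. Only 7 genes (0.0562%) differed by 1.5-fold or more at all. Besides Gpr176 these were Dcn, Fmod, Ptgds, Serping1 and Slc13a4, all lower, and Gh, higher. Dcn, the matrix proteoglycan decorin, stood at 8.80 and 8.18 in wild type and 7.86 and 7.88 in the knockout. Ptgds, the prostaglandin D2 synthase made in the leptomeninges, was at 12.08 in wild type A but at 10.70, 10.62 and 10.74 in the other 3 arrays. Dcn, Fmod, Ptgds, Serping1 and Slc13a4 were all highest in wild type A, the array with the high leptomeningeal sum. All of them but Serping1 are themselves markers counted in that sum, so for those the match is built in. Gh, growth hormone, was at 8.20 in knockout B and between 6.91 and 7.08 in the other 3, so 1 array carried it.

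Eif2ak4 had the smallest p after Gpr176 and is its next tested neighbour on chromosome 2. It encodes GCN2, the kinase that senses uncharged tRNA and phosphorylates the translation factor eIF2α. Its level was 8.54 and 8.63 in wild type A and B against 7.98 and 8.12 in the knockout, with no overlap. The difference was -0.54 ± 0.0730 (95% interval -0.70 to -0.37; limma adjusted p = 0.153). The A pair gave -0.56 and the B pair -0.51. At CT6 the difference was -0.43 ± 0.0730 (limma adjusted p = 0.536), again with no overlap. Eif2ak4 passed the test at CT18 under 3 of the alternatives, together with Tmem185b, and its adjusted p there was 0.0253 to 0.0296.

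The other neighbours of Gpr176 gave small differences. Of the 20 tested genes on each side of Gpr176, 4 were higher and 1 was lower at a limma p under 0.05, or 12.5%, the share of all genes, and the median of the 40 was 0.0261. Apart from Eif2ak4 their differences ran from -0.23 to 0.21. Fsip1, the nearest tested gene on the other side, stood at 7.25 and 7.13 in wild type and 7.26 and 7.42 in the knockout, a difference of 0.15 ± 0.0814. Srp14, a subunit of the signal recognition particle and the neighbour beyond Eif2ak4, differed by 0.09 ± 0.0674 with overlapping groups. Between Gpr176 and Eif2ak4 the RefSeq table lists 1 further gene, the long noncoding RNA 1700054M17Rik, which was not tested.

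**Figure D2:**
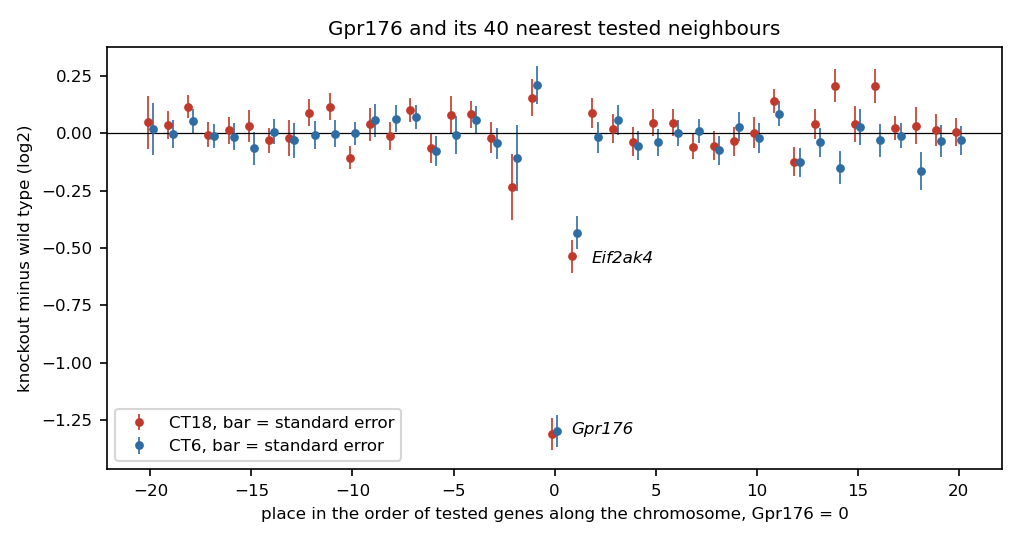
Difference knockout minus wild type (log2) with its standard error for Gpr176 and its 20 nearest tested genes on each side, by place in the gene order, at CT18 (red) and CT6 (blue). Gpr176 and its neighbour Eif2ak4 lie below the rest at both times, at -1.31 and -0.54 at CT18.

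The promoters of Gpr176 and Eif2ak4 are shown because the neighbours are read from opposite strands and had the smallest p of all genes. That of Nms is shown because Nms, a neuropeptide of the SCN, is the secreted factor with the smallest p. Each runs from 250 bases before to 50 bases after the RefSeq start (build GRCm38.p6), 5′ to 3′. Capitals mark the motifs searched, of which these 3 windows hold a single cAMP response half-site, in Gpr176. Gpr176 is chr2:118373370-118373669 on the minus strand, Eif2ak4 chr2:118388367-118388666 on the plus strand and Nms chr1:38938899-38939198 on the plus strand.
Gpr176: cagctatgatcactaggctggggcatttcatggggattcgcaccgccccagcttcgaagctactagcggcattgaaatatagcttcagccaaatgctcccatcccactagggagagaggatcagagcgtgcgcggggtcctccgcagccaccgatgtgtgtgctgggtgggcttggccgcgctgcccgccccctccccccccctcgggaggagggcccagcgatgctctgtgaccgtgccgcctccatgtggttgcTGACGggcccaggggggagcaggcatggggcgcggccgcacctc
Eif2ak4: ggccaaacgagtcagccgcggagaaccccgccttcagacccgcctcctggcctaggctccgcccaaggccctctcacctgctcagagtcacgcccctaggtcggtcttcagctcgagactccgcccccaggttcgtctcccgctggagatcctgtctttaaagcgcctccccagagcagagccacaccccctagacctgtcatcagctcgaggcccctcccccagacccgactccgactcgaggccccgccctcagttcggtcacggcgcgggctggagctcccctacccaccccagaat
Nms: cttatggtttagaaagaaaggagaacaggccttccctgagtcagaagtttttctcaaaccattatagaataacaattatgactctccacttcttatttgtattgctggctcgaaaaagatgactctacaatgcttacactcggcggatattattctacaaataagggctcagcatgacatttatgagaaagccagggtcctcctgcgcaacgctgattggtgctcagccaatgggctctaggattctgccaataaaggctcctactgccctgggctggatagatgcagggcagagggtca

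The motifs were the cAMP response element TGACGTCA, its half-site TGACG (which also lies within the full element), the E-box CACGTG bound by CLOCK and BMAL1, and the D-box TTANGTAA bound by DBP and NFIL3, on both strands. Of the 24 genes described next, 19 had a promoter in the table. Of these 19, 0 held the full element, 5 the half-site (26.3%), 0 the E-box and 2 the D-box (10.5%). Over all 27025 promoters the shares were 1.88%, 21%, 7.24% and 2.34%, and over the 9957 of tested genes 3.27%, 31.2%, 9.95% and 1.34%. The 2 promoters with a D-box were those of Krtap3-1 and Ndn. These counts describe letters in the windows and not binding.

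Below Gpr176 and Eif2ak4, the genes lower in the knockout with the smallest p differed by -0.30 to -0.48, and none of them passed the adjustment. MicroRNA genes and provisional symbols were left out of this choice. Tmem185b, a transmembrane protein, stood at 8.92 and 8.94 in wild type and 8.36 and 8.53 in the knockout, a difference of -0.48 ± 0.0669 (limma adjusted p = 0.153) that was -0.31 at CT6. Gria3, a subunit of AMPA-type glutamate receptors, stood at 8.98 and 8.99 against 8.62 and 8.73, a difference of -0.31 ± 0.0575. Kbtbd3 differed by -0.39, Dthd1 by -0.36, Frmd3, a FERM-domain protein, by -0.32, and Spin4, of the spindlin family, by -0.32. Rad1, a subunit of the DNA damage clamp, differed by -0.32, Desi2, a deSUMOylating peptidase, by -0.31, and Eef1akmt2, a methyltransferase of the elongation factor eEF1A, by -0.31. Adamts6, a secreted metalloprotease, differed by -0.30. For each of these 10 genes both knockout arrays lay below both wild-type arrays, as the rule that chose them required. Limma adjusted p for the genes other than Tmem185b was 0.319.

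The 12 genes higher in the knockout with the smallest p, again without microRNA genes and provisional symbols, differed by 0.24 to 0.44. All had a limma adjusted p of 0.281 or 0.319. Tnnc1, the slow and cardiac troponin C, stood at 7.18 and 7.16 in wild type and 7.51 and 7.52 in the knockout, a difference of 0.34 ± 0.0531. Ndn, encoding the imprinted neuronal protein necdin, was among the brightest of the set at 12.44 and 12.48 against 12.78 and 12.81, a difference of 0.33 ± 0.0675. Ndn differed by nearly as much at CT6, 0.31 ± 0.0675, with the knockout arrays again above the wild-type ones. Ctxn3, a cortexin, differed by 0.34, Dcxr, a carbonyl and xylulose reductase, by 0.34, and Churc1, a zinc-finger factor, by 0.30. Cyb561, an electron carrier of secretory vesicles, differed by 0.26, Acer2, an alkaline ceramidase, by 0.25, and Ankrd35 by 0.24. Krtap3-1, a hair keratin-associated protein, differed by 0.37, and Prp2, a proline-rich protein, by 0.35. Btnl5-ps, a butyrophilin-like pseudogene, differed by 0.44 on its brightest probe set, but its other probe sets gave 0.12 and 0.0067. A second probe set of Acer2, below the filter, gave 0.02. Nms belongs to this group and is described with the neuropeptides.

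**Figure D3:**
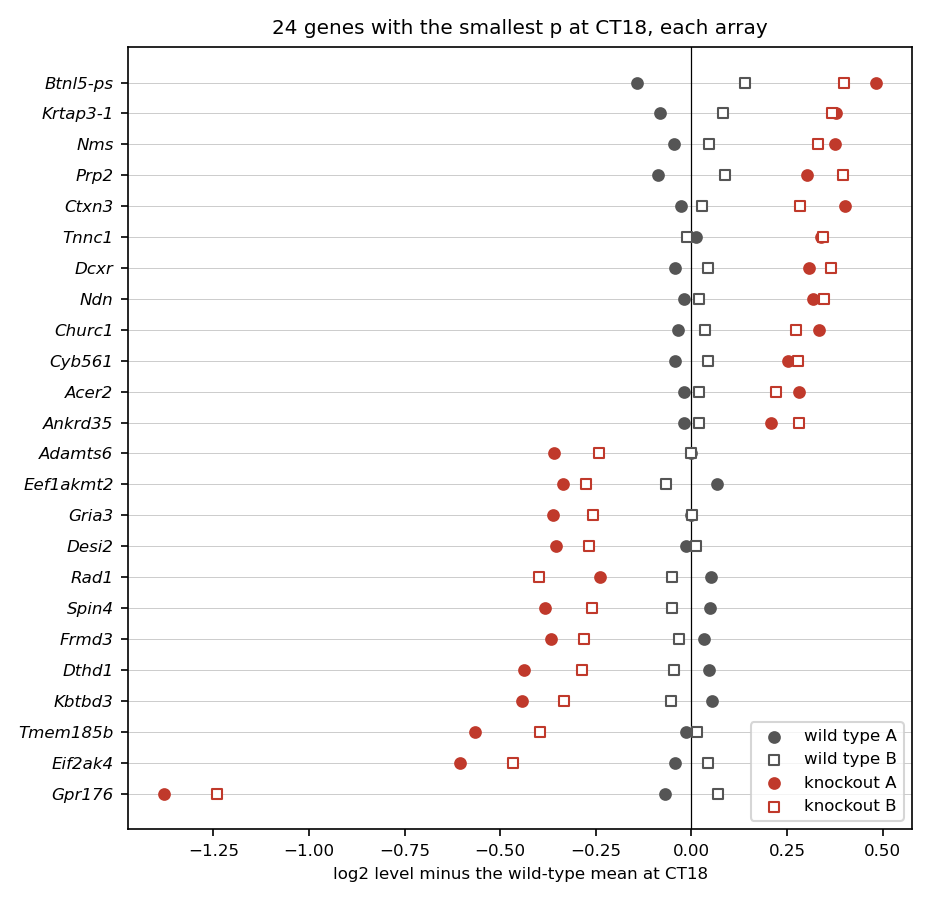
Level in each CT18 array minus the wild-type mean (log2) for the 24 genes with the smallest p, 12 in each direction. MicroRNA genes and provisional symbols were left out. Grey symbols are wild type, red the knockout, circles A and squares B. Gpr176 sits at -1.38 and -1.24, and the other 23 genes lie between -0.61 and 0.48 in the knockout, with their wild-type arrays within 0.14 of the mean.

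The number of genes with an unadjusted p under 0.05 depended on which arrays entered. The spread over genes of knockout A minus wild type A was 0.164 (SD), that of knockout B minus wild type B 0.0970, and that between the arrays of 1 genotype 0.115 (wild type) and 0.106 (knockout). So the B arrays of opposite genotype differed by less than arrays of the same genotype. Without wild type A the count fell from 657 higher and 901 lower to 236 and 280 (4.14%). Without knockout A it was 445 and 315 (6.10%). Without wild type B it was 826 and 1140 (15.8%), and without knockout B 499 and 1151 (13.3%). Counts of list members without an array, given further on, are to be read against these shares of all genes. Gpr176 was the 1 gene called in each of these 4 fits, with differences of -1.38 to -1.24. With both A arrays left out the counts were 217 and 129 (2.78%), and with both B arrays left out 646 and 1356 (16.1%). The share of higher genes moved with them, from 32.3% on the A arrays to 62.7% on the B arrays.

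**Figure D4:**
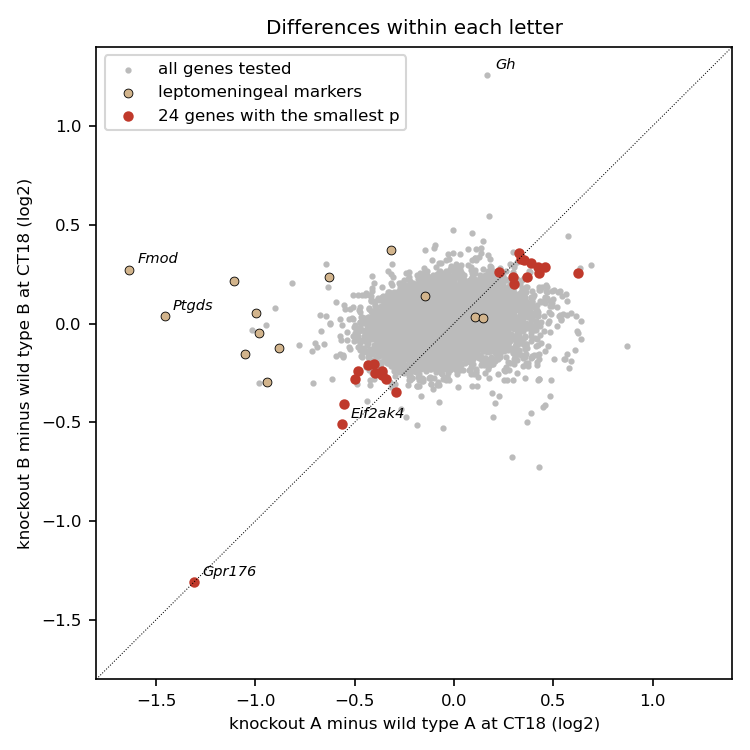
Knockout minus wild type (log2) in the A arrays (horizontal) against that in the B arrays (vertical) for every gene tested; the dotted line marks equal differences. Gpr176 lies on the line at -1.31 in both, and the leptomeningeal markers, with a median of -0.941 in the A arrays and 0.0373 in the B arrays, spread to the left.

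On the list of Gpr176, Gz and RGS genes, no member but Gpr176 passed the adjusted threshold. Gnaz, the α subunit of Gz, stood at 9.21 and 9.26 in wild type and 9.20 and 9.38 in the knockout, a difference of 0.05 ± 0.0701 (95% interval -0.11 to 0.21), whose sign turned with median centring. Rgs16 stood at 10.87 and 10.88 against 10.97 and 10.94, a difference of 0.08 ± 0.0506 (95% interval -0.04 to 0.19). The knockout arrays of Rgs16 were both above the wild-type arrays, by 0.09 in the A and 0.06 in the B pair. Rgs2, a regulator that acts mainly on Gq, stood at 8.97 and 9.02 against 9.18 and 9.09, a difference of 0.14 ± 0.0573. Rgs9, an R7-family regulator, differed by -0.14 ± 0.0634. Of the 15 tested genes of the Gz and RGS list, 1 was higher (Rgs2) and 1 lower (Gpr176) at p under 0.05, against 12.5% of all genes, and the list's median was 0.00092 (-0.0658 with median centring).

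Among 21 other G protein subunits 0 were higher and 2 lower at p under 0.05, with a median of -0.0084. Gnb4, a β subunit, stood at 8.75 and 8.63 in wild type and 8.43 and 8.47 in the knockout, a difference of -0.24 ± 0.0583. Gna13, an α subunit, differed by -0.16 ± 0.0678, and Gng7, a γ subunit, by 0.14 ± 0.0698. That is 9.52% of the subunits, against 12.5% of all genes, and with 1 array left out 0 to 2 were higher and 1 to 4 lower. Of 31 genes that make, break or read cAMP, 24 had differences below 0 (77.4%, against 56.7% of all genes) and 7 above, with a median of -0.0601. Both knockout arrays lay below both wild-type arrays for 11 of the 31 and above them for 3 (26.7% and 19.2% of all genes). At p under 0.05, 0 were higher and 3 lower (9.68%, under the 12.5% of all genes). The 3 were Pde7a, a cAMP phosphodiesterase, at -0.26 ± 0.0860, Pde3b, a phosphodiesterase inhibited by cGMP, at -0.21 ± 0.0827, and Adcy7, an adenylyl cyclase, at -0.17 ± 0.0693. Pde7a rested more on the A arrays (-0.40) than on the B arrays (-0.11), while Pde3b gave -0.18 and -0.25. With 1 array left out 0 were higher, and the lower ones numbered 2 with either one of the wild-type arrays left out, 0 without knockout A and 6 without knockout B.

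CREB-pathway and cAMP-response genes gave small differences of both signs. Of 51 such genes on the array 39 were tested, of which 2 were higher and 5 lower at p under 0.05 (17.9%, against 12.5% of all genes), with a median of -0.0293. Without wild type A the counts were 1 and 3, without wild type B 2 and 1, without knockout A 1 and 3 and without knockout B 0 and 3. Fos, the immediate early gene read as a mark of neuronal activation, stood at 6.97 and 6.92 in wild type and 7.00 and 6.93 in the knockout, a difference of 0.02 ± 0.0878 with overlapping groups. Nr4a1, an orphan nuclear receptor induced by cAMP, stood at 7.92 and 8.15 against 7.93 and 7.91, a difference of -0.11 ± 0.0757 with overlapping groups. Arc, an activity-induced synaptic gene, stood at 7.35 and 7.34 against 7.50 and 7.53, a difference of 0.17 ± 0.0535. At CT6 Arc differed by -0.17 ± 0.0535. The interaction of genotype and time for Arc was 0.34 and its limma adjusted p was 0.944. Homer1, a postsynaptic scaffold with an activity-induced short form, differed by -0.20 ± 0.0660. Of the 30 promoters found for this list, 3 held the full cAMP response element (10%) and 15 the half-site (50%), against 3.27% and 31.2% over tested genes.

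The clock repressors and day-phase genes gave small differences. In wild type their mean level was 9.92 and 9.95 at CT6 and 9.02 and 9.04 at CT18. Of 15 clock repressors and day-phase genes 0 had a p under 0.05 in either direction, and the median was 0.0192 (-0.0402 with median centring). Per1 stood at 8.20 and 8.09 in wild type and 8.11 and 8.30 in the knockout, a difference of 0.06 ± 0.0709 (95% interval -0.10 to 0.22). Per2 stood at 8.31 and 8.33 against 8.47 and 8.21, a difference of 0.02 ± 0.0911 (95% interval -0.18 to 0.22). For both Period genes the groups overlapped, and the sign differed between the A and the B arrays. Nr1d1, the repressor REV-ERBα, differed by 0.02 ± 0.0686 (95% interval -0.14 to 0.17). Dbp, an activator at D-boxes, differed by 0.05 ± 0.0850 (95% interval -0.14 to 0.24). The signs of Per1, Per2, Nr1d1 and Dbp turned negative with median centring. Per3 was lower in both knockout arrays, at 8.68 and 8.67 against 8.76 and 8.81, a difference of -0.11 ± 0.0531, and differed by -0.13 at CT6. Bhlhe41, the repressor DEC2, differed by 0.12 ± 0.0802, and Nampt, the rate-limiting enzyme of NAD salvage, by -0.06 ± 0.0510.

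Of 12 activators and night-phase clock genes 9 had differences below 0 (75%, against 56.7% of all genes). At p under 0.05, 1 was higher and 3 were lower (33.3%, against 12.5% of all genes), 9 had both knockout arrays below both wild-type arrays (26.7% of all genes did), and the median was -0.0700. Nfil3, the repressor of D-box genes that is high at night, stood at 8.17 and 8.04 in wild type and 7.80 and 7.89 in the knockout, a difference of -0.26 ± 0.0745. The groups did not overlap, and the difference was -0.36 in the A arrays and -0.15 in the B arrays. At CT6, when its level was 7.02 to 7.21, Nfil3 differed by -0.04. Rorb, the retinoid-related orphan receptor β, differed by -0.17 ± 0.0729, and Csnk2a1, a casein kinase 2 subunit, by -0.13 ± 0.0510. Arntl, which encodes BMAL1, stood at 9.23 and 9.20 against 9.17 and 9.17, a difference of -0.04 ± 0.0514 (95% interval -0.16 to 0.07). Without wild type A none of the 12 had a p under 0.05 (0 higher, 0 lower), and the median was -0.0572. Without wild type B or knockout A 0 were higher and 1 lower, and without knockout B 0 and 3.

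Neuropeptides and their receptors differed in both directions. Of 43 tested genes 7 were higher and 7 lower at a limma p under 0.05, or 32.6%, against 12.5% of all genes. Both knockout arrays lay above both wild-type arrays for 16 of the 43, where 19.2% of all genes did. They lay below for 11, close to the 26.7% of all genes. None of the 43 passed the adjustment (smallest limma adjusted p = 0.319). Nms, neuromedin S, made by a large class of SCN pacemaker neurons, stood at 10.71 and 10.80 in wild type and 11.13 and 11.08 in the knockout. The groups did not overlap, and the difference was 0.35 ± 0.0637 (95% interval 0.21 to 0.50). At CT6 Nms differed by 0.23 ± 0.0637, also with no overlap. Nmu, the related neuromedin U, was near the filter at 6.73 and 6.66 against 7.08 and 6.88, a difference of 0.29 ± 0.0849. At CT6 Nmu was brighter, 7.78 and 7.59 in wild type and 8.36 and 8.25 in the knockout, and differed by 0.61 ± 0.0849 (limma adjusted p = 0.217). The interaction of genotype and time for Nmu was -0.32 with a limma adjusted p of 0.944.

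Avp, the vasopressin precursor of the SCN shell, stood at 10.69 and 10.74 in wild type and 10.96 and 10.86 in the knockout, a difference of 0.20 ± 0.0599. Cckar, the cholecystokinin A receptor, differed by 0.22 ± 0.0652 at CT18 and 0.19 at CT6. Vip, the peptide of the SCN core that couples its neurons, stood at 11.66 and 11.63 against 11.70 and 11.78, a difference of 0.10 ± 0.0558 (95% interval -0.03 to 0.22). Prok2, a secreted output factor that is low at night, stood at 6.87 and 6.76 against 7.09 and 6.89, a difference of 0.18 ± 0.0994 (95% interval -0.04 to 0.41). Nms, Nmu, Avp, Vip and Prok2 were thus each higher in both knockout arrays than in both wild-type arrays, which 19.2% of all genes were.

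The other members with a p under 0.05 are outside the rule for genes to name and were picked after their values were seen, except Mtnr1a and Oprk1, which are described with the receptors. On the higher side were Cck, cholecystokinin, at 0.21 ± 0.0654, the granin precursor Vgf at 0.19 ± 0.0682 and Chga, chromogranin A, at 0.18 ± 0.0602. On the lower side Sstr1, a somatostatin receptor, stood at 8.14 and 8.04 in wild type and 7.68 and 7.90 in the knockout, a difference of -0.30 ± 0.0900, the largest of the list in that direction. The receptors Cckbr, for cholecystokinin, and Npy1r, for neuropeptide Y, differed by -0.17 ± 0.0732 and -0.16 ± 0.0590. Grp, gastrin-releasing peptide of the SCN core, stood at 11.03 and 11.01 against 10.86 and 10.90, a difference of -0.15 ± 0.0540. Pcsk1n, an inhibitor of prohormone convertase, differed by -0.15 ± 0.0619. Of the 7 lower genes 5 encode receptors, and of the 7 higher genes 6 encode peptides or granule proteins. That split was made after the values were seen. The shares of receptors and of peptides among all 43 tested genes were not counted, so it is not a result about either kind. Without wild type A the list held 3 higher and 0 lower genes, without knockout A 5 and 0, without wild type B 10 and 4 and without knockout B 6 and 7.

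SCN identity genes gave differences of both signs. The list shares Avp, Vip, Nms, Nmu, Cck, Prokr2, Rgs16, Rora, Rorb, Syt10 and Gpr176 with others here. Of 23 tested genes 6 were higher and 2 lower at p under 0.05 (34.8%, against 12.5% of all genes). The median was 0.0039 (-0.0537 with median centring). The lower genes, Gpr176 and Rorb, and the higher Avp, Nms, Nmu and Cck were already counted in other lists. Lypd6, a membrane-anchored modulator of nicotinic receptors, stood at 8.71 and 8.90 in wild type and 9.21 and 9.07 in the knockout, a difference of 0.34 ± 0.0792. It gave 0.50 in the A arrays and 0.17 in the B arrays, and 0.18 at CT6. Without wild type A or without knockout A the list held 3 higher and 1 lower genes. Lhx1 and Six6, transcription factors that specify the SCN, had small differences, with Lhx1 at -0.08 and Six6 at 0.0039. Marker genes of neighbouring hypothalamic nuclei summed to 6874 and 7164 in wild type and 7602 and 8134 in the knockout, over the 23 on the array. Of the 13 tested, 5 were higher and 0 lower at p under 0.05 (5.28% and 7.24% of all genes were). Both knockout arrays lay above both wild-type arrays for 7 of the 13 and below them for 2 (19.2% and 26.7% of all genes). The median was 0.103, and none of the 13 passed the adjustment. Oxt, oxytocin, is the brightest of these markers and so weighs most in their summed signal. It stood at 11.51 and 11.56 against 11.69 and 11.89, a difference of 0.25 ± 0.0959. The part of these markers in the neuropeptide differences was not tested.

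Most GABA and glutamate receptor genes had differences below 0, 29 of the 34 tested (85.3%, against 56.7% of all genes). At p under 0.05, 1 was higher and 9 lower (29.4%, against 12.5% of all genes), and 24 had both knockout arrays below both wild-type arrays, where 26.7% of all genes did. The median was -0.0901, with -0.115 in the A arrays and -0.0527 in the B arrays. Gria3 led the list, as above. Gabra2, the α2 subunit of the GABA-A receptor, stood at 9.19 and 9.23 in wild type and averaged 9.01 in the knockout, a difference of -0.20 ± 0.0516. Grm5, the metabotropic receptor mGluR5, stood at 10.16 and 10.15 against 9.85 and 10.00, a difference of -0.23 ± 0.0609. At CT6 these 3 differed by -0.04, -0.08 and -0.09. The list held 0 higher and 6 lower genes without wild type A (4.14% of all genes had such a p), without knockout A 0 and 7, without wild type B 0 and 8 and without knockout B 0 and 9. None of the 34 passed the adjustment, and in the authors' values as deposited the counts were 0 and 10.

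A list of receptors for monoamines, melatonin, opioids and acetylcholine also held receptors for adenosine, cannabinoids and nucleotides. It gave 2 higher and 3 lower of 24 at p under 0.05 (20.8%, against 12.5% of all genes). The median was -0.0209, and 14 differences were below 0 (58.3%, near the 56.7% of all genes). With 1 array left out 0 to 2 were higher and 1 to 3 lower. Htr1b, the serotonin 1B receptor found on retinal input to the SCN, stood at 8.19 and 8.17 in wild type and 8.04 and 7.93 in the knockout, a difference of -0.19 ± 0.0587 that was -0.14 at CT6. Oprk1, the κ opioid receptor, differed by -0.22 ± 0.0819. Mtnr1a, the melatonin receptor MT1, a Gi-coupled receptor through which melatonin acts on the SCN, stood at 7.80 and 7.84 against 7.42 and 7.72, a difference of -0.25 ± 0.0929. Its 2 knockout arrays were further apart than the wild-type ones.

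Ion channel genes had differences below 0 in 18 of 25 potassium channels (72%; median -0.0448) and 21 of 26 calcium, sodium, HCN and TRP channels (80.8%; median -0.0665), against 56.7% of all genes. At p under 0.05, 0 potassium channels were higher and 2 lower (8%), and 0 of the others were higher and 3 lower (11.5%), both under the 12.5% of all genes. The lower potassium channels numbered 0 without wild type A and 6 with median centring. The lower calcium, sodium, HCN and TRP channels numbered 0 without wild type A, 0 without knockout A, 4 with either one of the B arrays left out, 8 with median centring and 7 in the deposited values. Kcnn2, the SK2 channel, stood at 8.19 and 8.13 in wild type and 8.04 and 7.96 in the knockout, a difference of -0.17 ± 0.0550. Kcnj10, the glial Kir4.1 channel, differed by -0.14 ± 0.0525, and Kcnma1, the BK channel that shapes the night-time firing of SCN neurons, by -0.11 ± 0.0536. The sodium channel genes Scn9a, Scn1a and Scn3a differed by -0.21, -0.16 and -0.18, each more in the A than in the B arrays. For Scn3a the difference was -0.32 in the A arrays and -0.04 in the B arrays.

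Heat shock genes encode chaperones that keep proteins folded, and the list also holds Rbm3 and Cirbp, which encode RNA-binding proteins induced by cold. Of the 23 genes tested 0 were higher and 4 lower at p under 0.05 (17.4%, against 12.5% of all genes), with a median of -0.0743. The counts were 0 and 1 without wild type A, 1 and 1 without knockout A, and 0 and 5 with either one of the B arrays left out. Cirbp differed by 0.13 ± 0.0682 and Rbm3 by 0.09 ± 0.0673, both named after their values were seen. Hspb1, the small heat shock protein HSP27, stood at 9.04 and 8.91 in wild type and 8.71 and 8.61 in the knockout, a difference of -0.31 ± 0.0812, and its second probe set gave -0.38. At CT6 it differed by 0.18, and its interaction of -0.49 had a limma adjusted p of 0.944. Chordc1, a co-chaperone of HSP90, differed by -0.26 ± 0.0847 and Hsp90aa1, the inducible HSP90α, by -0.16 ± 0.0583. Of 25 endoplasmic reticulum folding genes 1 was higher and 0 lower (4%), with a median of -0.0342, and with 1 array left out 0 to 1 were higher and 0 to 2 lower. Manf, a secreted factor of that compartment, differed by 0.17 ± 0.0640, Creb3l1, a transcription factor of its membrane, by 0.15 ± 0.0670, and Sel1l, a subunit of its degradation machinery, by -0.12 ± 0.0583.

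Most genes of the mitochondrial respiratory chain had differences above 0, 31 of the 36 tested (86.1%, against 43.3% of all genes), and 20 had both knockout arrays above both wild-type arrays, where 19.2% of all genes did. At p under 0.05, 4 were higher and 1 lower (13.9%, against 12.5% of all genes), and the counts were 0 and 0 without wild type A, 1 and 0 without knockout A and 0 and 0 with median centring. The median was 0.0570, with 0.0595 in the A arrays and 0.0503 in the B arrays, and it shrank to 0.0192 with median centring. Ndufa2, a subunit of complex I, stood at 10.35 and 10.46 in wild type and 10.62 and 10.57 in the knockout, a difference of 0.19 ± 0.0592. Cox4i1, of complex IV, differed by 0.16 ± 0.0600. Atp5b, the β subunit of the ATP synthase, differed the other way, by -0.15 ± 0.0578.

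In the remaining lists the share of genes with a limma p under 0.05 was 5.88% for sterol synthesis and 4.35% for synaptic vesicle and release genes, both under the 12.5% of all genes. Of 17 sterol synthesis genes 0 were higher and 1 lower, Cyp51, the lanosterol demethylase, at -0.17 ± 0.0698. Mvk, mevalonate kinase, differed by 0.13 and Fdft1, squalene synthase, by -0.09. Of 23 synaptic vesicle and release genes 0 were higher and 1 lower, Rims1, an active-zone scaffold, at -0.17 ± 0.0534. Stx1a, syntaxin 1A, differed by 0.13, and Nrxn3, a neurexin, by -0.12. Of 14 glucocorticoid-responsive genes 2 were higher and 0 lower, slightly above the share of all genes, and 1 was higher with wild type A or either one of the knockout arrays left out. Zbtb16, a zinc-finger factor induced by glucocorticoids, stood at 8.17 and 8.15 in wild type and 8.55 and 8.38 in the knockout, a difference of 0.30 ± 0.0968. Nfkbia, the NF-κB inhibitor IκBα, differed by 0.15 ± 0.0600, and Pdk4, a kinase of pyruvate dehydrogenase, by 0.10 ± 0.0686.

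**Figure D5:**
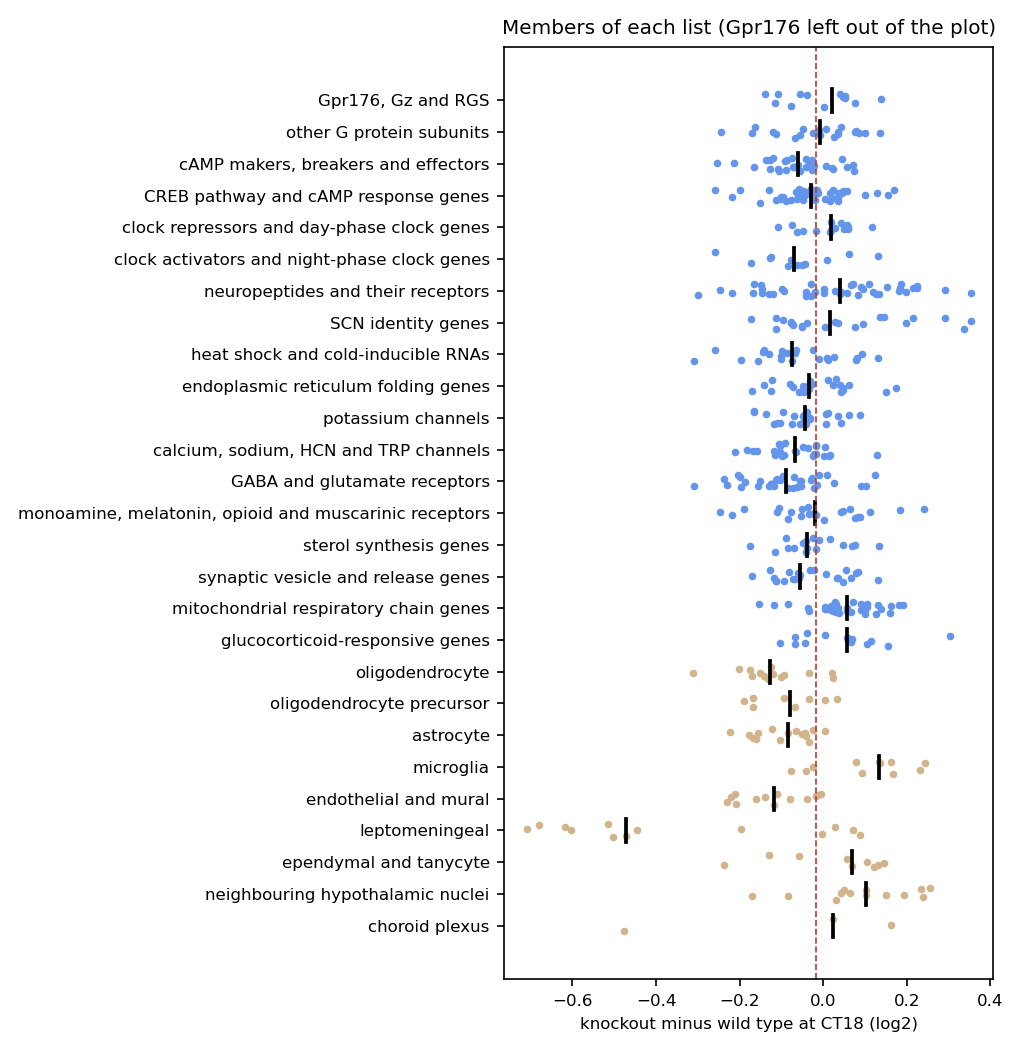
Knockout minus wild type at CT18 (log2) for the tested members of each gene list (blue) and of each cell type marker list (sand), with a black bar at the median of the members drawn and a dashed line at the median of all genes, -0.0165; Gpr176 is not drawn. Most members lie within 0.3 of 0, and the leptomeningeal markers reach -0.71.

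Markers of several other cell types were highest in wild type A. Leptomeningeal markers had a median difference of -0.473, made of -0.941 in the A arrays and 0.0373 in the B arrays. Summed oligodendrocyte signal was 13862 and 11040 in wild type and 11416 and 11969 in the knockout, again highest in wild type A. Astrocyte markers summed to 35947 and 34455 against 32077 and 33844, with 0 of 15 higher and 5 lower at p under 0.05 (33.3%, against 12.5% of all genes). Endothelial and mural markers summed to 5079 and 4593 against 4389 and 4403, with 0 of the 13 tested higher and 4 lower (30.8%). Microglial markers went the other way, at 3305 and 3178 against 3430 and 3529, with 2 of the 11 tested higher and 0 lower (18.2%). Their part in the gene differences above was not tested. Marker genes of blood were below the filter in 4 of 5 cases.

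The same comparison at CT6 used other pools and shared no array with CT18. There too Gpr176 was the 1 gene called (0.00803%), and 528 genes (4.24%) had a limma p under 0.05. Of the 1558 genes under that threshold at CT18, 1069 (68.6%) had the same sign at CT6, where 58.7% of all genes did. Of the 1558, 109 also had a p under 0.05 at CT6 with the same sign, which is 7.00% of the CT18 genes and 20.6% of the CT6 genes, and 17 were so with the opposite sign. Eif2ak4, Tmem185b, Nms, Nmu, Ndn, Tnnc1, Dcxr, Ankrd35, Cckar, Lypd6, Eef1akmt2, Chordc1, Htr1b and Cyp51 were among the 109. The genotype difference was tested against time directly by the interaction. It called 0 genes at an adjusted p under 0.05 (limma; smallest adjusted p 0.944), while 605 genes (4.86%) had an unadjusted p under 0.05. For Gpr176 the interaction was -0.01 ± 0.0982.

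The microRNA genes Mir25, Mir92b, Mir187 and Mir487b were among the 40 genes with the smallest p. They lie outside the rule for genes to name and were picked after their values were seen. Such probe sets read a short stretch of precursor RNA, so their signal is not a level of the mature microRNA. Mir25 stood at 7.28 and 7.37 in wild type and 7.58 and 7.73 in the knockout, a difference of 0.33 ± 0.0633. Mir92b stood at 7.88 and 8.03 against 8.25 and 8.29, a difference of 0.32 ± 0.0665. Both were higher in both knockout arrays, both had a limma adjusted p of 0.319, and at CT6 they differed by 0.00 and -0.11. Mir487b, of the imprinted cluster on chromosome 12, differed by -0.41 ± 0.0796 and Mir187 by 0.29 ± 0.0582. Mir25 lies in an intron of Mcm7, a subunit of the replicative helicase, whose own difference was 0.0065 ± 0.105 with overlapping groups. The mature products of Mir25 and Mir92b are shown because they share their seed, bases 2 to 8, in capitals (RefSeq, build GRCm38.p6). The first is at chr5:138165332-138165353 and the second at chr3:89227126-89227147, both on the minus strand.
mmu-miR-25-3p: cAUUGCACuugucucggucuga
mmu-miR-92b-3p: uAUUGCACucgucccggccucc

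Probe sets that could not be tied to a single gene were fitted as well. None of 2300 tested without a symbol (423 at an unadjusted limma p under 0.05) and none of 1243 with several symbols (165 at p under 0.05) passed, with a smallest limma adjusted p of 0.354 in each class.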

How the data were processed

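RNA from the SCN, 10 animals to a pool, was measured on 8 whole-transcript arrays, 2 per group of genotype and circadian time. The authors deposited log2 values for 28853 probe sets. The sources used here do not state the background correction, the summary over probes or any normalization. Lower quartiles of the deposited log2 values spread by 0.139, above the limit of 0.1, so the arrays were quantile normalized, which hides a change shared by most genes. The platform annotation gave 1 symbol for 21789 probe sets, several for 1621 and none for 5443, and 21698 were matched to RefSeq by Entrez number. The brightest probe set stood for each of 19938 genes, 999 of which had several. Genes with a mean under the 40th percentile (log2 6.82) were left out, 7486 in all. A group-means model over all 8 arrays was fitted with limma 3.58.1 in R 4.3.3 (4 residual and 5.58 prior degrees of freedom), with Benjamini-Hochberg adjustment over 12452 genes. The fit was tested on simulated data. Values after ± are standard errors unless an SD is named, and 2 arrays per group limit the precision.

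Members, lists and the naming rule were chosen with earlier results of these data known. The rule names 13 genes always, 12 genes per direction (called genes first, then those with the smallest p whose groups do not overlap) and up to 3 members of each list by smallest p. It leaves out provisional symbols and microRNA, snoRNA, olfactory and vomeronasal families. The letters A and B do not pair the arrays: deviations of wild type and knockout at CT18 with the same letter correlated at -0.194, and the other pairs of groups at -0.222 to 0.257. Alternatives were the deposited values, median centring, other filters, the mean of probe sets, the CT18 arrays alone, the letter as a block, trended and robust moderation, array weights and leaving out arrays.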

Additional observations from a re-analysis of the deposited data

How the results depend on the processing

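Of 12452 genes, Gpr176 was called at CT18 under every setting run, with differences of -1.38 to -1.24 (limma adjusted p 3.43e-07 to 0.00575), and 1 gene was called whichever single array was left out (1 to 1). With median centring, with the filter at the 60th percentile and with trended and robust moderation the count was 3, the others being Eif2ak4 and Tmem185b (adjusted p 0.0253 to 0.0397). Both kept their sign in all 20 alternatives. At a p of 0.05 without adjustment 1558 genes would count, and at 1.5-fold 7. At CT6 the count was 2 with the deposited values, with median centring and with the replicate block. The letter as a replicate block left 1 gene called at CT18 and 639 higher and 845 lower genes at p under 0.05. Crossing the knockout letters in that block, added after seeing the data, gave 572 and 732 with 1 gene called. The interaction called 0 genes in each fit run.

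Higher genes at p under 0.05 numbered 236 to 826 and lower ones 280 to 1151 with 1 array left out. Median centring gave 358 and 1374, leaving out both A arrays 217 and 129, and leaving out both B arrays 646 and 1356, the last pair of settings added after seeing the data. The cause was not tested.

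Signs turned for 8 of the genes named, none of them called. With median centring the differences were -0.0167 for Gnaz, -0.0014 for Per1, -0.0460 for Per2 (-0.0234 in the deposited values), -0.0189 for Nr1d1 and -0.0150 for Dbp. Without both B arrays they were -0.0157 for Gnaz, -0.0904 for Per1, -0.0714 for Dbp and 0.0139 for Nr4a1. Without both A arrays they were -0.122 for Per2, -0.0973 for Nr1d1 and 0.0073 for Fdft1. With 1 array left out the ranges were -0.0414 to 0.145 for Gnaz, -0.0363 to 0.151 for Per1, -0.108 to 0.146 for Per2, -0.0518 to 0.0851 for Nr1d1, -0.0633 to 0.164 for Dbp, -0.0093 to 0.0576 for Fos and -0.229 to 0.0040 for Nr4a1. For these genes the 4 arrays do not fix a direction.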
